A study of Mus musculus with 6 samples.

Results

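The Schlafen family is described here in microglia purified from mouse cerebellum. Its members were the rows of the count table with the symbols Slfn1, Slfn2, Slfn3, Slfn4, Slfn5, Slfn8 and Slfn9, 7 of 23491 gene symbols, and all 7 passed the filter on low counts. Every mouse was labelled as an Fmr1 knockout, a model of fragile X syndrome, so the controls share that label and there was no wild-type group. One group received saline, called sham in the sample names, and the other received poly(I:C), a synthetic double-stranded RNA used in place of a viral infection, injected intraperitoneally, with 3 libraries in each group. After perfusion and a Percoll step to clear myelin, cerebellar cells were captured on CD11b beads. CD11b is carried by microglia but also by neutrophils, monocytes and other macrophages. The strain, sex and age of the mice, and the dose of poly(I:C) and the time after injection, are not stated in the sources used here. The labels do not say whether replicates came from separate animals, so p-values measure the spread between these libraries, which may be technical.

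Schlafen genes take their name from the German word for sleeping, because the first members were found as genes that keep immature T cells quiescent. Mouse members come as short proteins (Slfn1, Slfn2), intermediate proteins (Slfn3, Slfn4) and long proteins with a helicase-like end (Slfn5, Slfn8, Slfn9), all built around a core domain that in several members binds or cuts transfer RNA. Many are induced by type I interferon, in which receptor signalling assembles ISGF3, a transcription factor complex that binds interferon-stimulated response elements in promoters. Members are best known from T cells, monocytes, macrophages and other blood cells, where they have been linked to quiescence, differentiation and defence against viruses.

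Library totals were between 33710545 and 34899835 counts. CPM is the count scaled to library size by TMM. On that scale 3 counts, the limit that a count of 0 allows, corresponded to at most 0.0912 CPM, the value in saline replicate 1. Such limits describe counting error alone, since PCR copies without molecular identifiers are not independent molecules. Reads over Fmr1 numbered 1243 to 1375 in saline and 1484 to 2205 in poly(I:C), and without a wild-type group they check neither genotype nor labels. Of the marker lists, the microglial one had the highest sum in every library. The 9 of 10 listed markers with a row summed to between 35722 and 41560 CPM in saline libraries and between 28131 and 38917 CPM in poly(I:C). One library stood apart in other cells' transcripts. The 11 neutrophil markers summed to 20909 CPM in saline replicate 1, where saline replicates 2 and 3 had 3644 and 3648 CPM and poly(I:C) libraries 1782 to 3139 CPM. Csf3r, one of the 11, is also expressed by microglia and had 33275 to 45150 counts in every library. S100a9, typical of neutrophils and chosen for mention after its values were seen, had 219622 counts in saline replicate 1, 27017 and 23374 in the other saline libraries and 25112, 6373 and 7044 in poly(I:C) replicates 1 to 3. The 10 monocyte markers summed to 2761 CPM in that library, to 557 and 680 CPM in the other saline libraries and to 459 to 1062 CPM in poly(I:C). T cell markers, with 8 of 9 rows present, summed to no more than 17.3 CPM in any library. In poly(I:C) replicate 1 the choroid plexus markers reached 19097 CPM, against 3907 to 9201 CPM elsewhere. In bulk RNA, fewer cells of a type and less RNA per cell cannot be told apart.

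All 7 Schlafen genes had higher mean levels with poly(I:C), and 2 of them, Slfn5 and Slfn8, passed the test. By the quasi-likelihood test of edgeR, with Benjamini-Hochberg adjustment over 14727 genes, 0.883% of all tested genes were called higher and 0.0747% lower. Of the 7 members, 4 had an unadjusted p under 0.05, as did 21.3% of all tested genes. The median log2 difference of the 7 members was 1.44, beside 0.01 over all tested genes. In 4 members (Slfn2, Slfn5, Slfn8 and Slfn9) every poly(I:C) library lay above every saline library, a separation seen in 14% of tested genes. All 3 long members were among these 4, and of the short and intermediate members only Slfn2 was. Slfn9 joined Slfn5 and Slfn8 past the threshold with RLE scaling (0.842% of genes called higher), total-count scaling (1.05%), no filter (0.664%), a stricter filter (1.38%) and DESeq2 (3.76%).

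**Figure D1:**
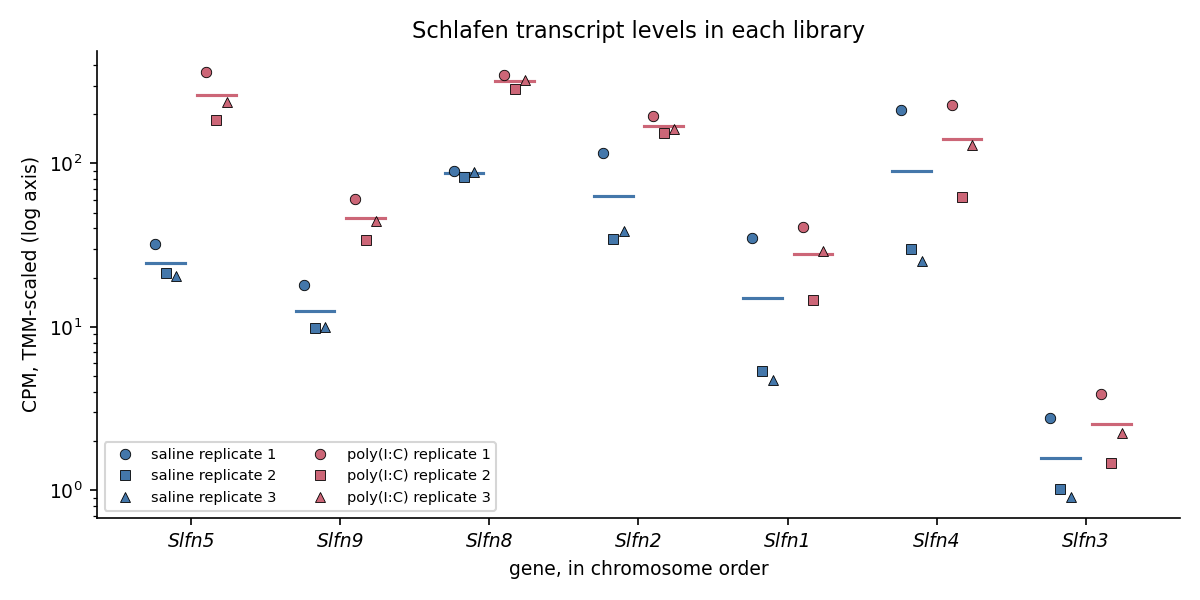
Level of each Schlafen gene in each library, in CPM on a log axis, with genes in chromosome order. Points are libraries, shapes are replicate numbers and bars are group means of 3 libraries. Slfn5, Slfn9, Slfn8 and Slfn2 separate by treatment, and in Slfn2, Slfn1, Slfn4 and Slfn3 saline replicate 1 lies well above the other saline libraries.

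Slfn5 and Slfn8 are shown first because they passed the test with all libraries, with Slfn9 as the near copy of Slfn8. The sequences are the 250 bases before the annotated start from RefSeq on GRCm38.p6, on the strand of the gene, and for Slfn9 a window of 60 bases of it. The counts were made on GRCm39, so these positions belong to the sequences alone. Slfn5 lies at chr11:82951852-82952101, plus strand, Slfn8 at chr11:83020811-83021060, minus strand and the Slfn9 window at chr11:82991841-82991900, minus strand. Capitals mark the core of an interferon-stimulated response element, which is GAAA, any 2 bases and GAAA again, searched on both strands. In Slfn8 and Slfn9 the match is on the strand opposite to the gene, so the printed letters are the reverse complement.
Slfn5: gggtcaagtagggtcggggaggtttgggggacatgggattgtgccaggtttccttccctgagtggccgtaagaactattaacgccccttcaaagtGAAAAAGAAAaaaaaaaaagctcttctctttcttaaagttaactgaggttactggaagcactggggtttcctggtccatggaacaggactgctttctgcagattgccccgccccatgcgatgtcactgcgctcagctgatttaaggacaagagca
Slfn8: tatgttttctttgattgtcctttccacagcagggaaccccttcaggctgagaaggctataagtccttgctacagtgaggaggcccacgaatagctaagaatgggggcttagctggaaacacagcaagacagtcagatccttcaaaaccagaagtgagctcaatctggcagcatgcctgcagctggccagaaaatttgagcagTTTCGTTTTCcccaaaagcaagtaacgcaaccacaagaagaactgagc
Slfn9: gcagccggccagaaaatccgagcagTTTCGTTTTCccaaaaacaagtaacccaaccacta
The match began 155 bases before the start in Slfn5, 48 in Slfn8 and 45 in Slfn9. In Slfn5 it opened a longer run of A, while Slfn8 and Slfn9 held the same 10 letters. It was found in 2.98% of the 32851 promoter windows in the table. Of genes with a window, 3.4% of the 11432 tested and 30.1% of the 103 called higher held it. A match is a description of letters and not of a bound site.

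Slfn5 encodes a long, nuclear member that has been described as a repressor of transcription. It stood at 32.1, 21.4 and 20.5 CPM in saline replicates 1 to 3 and at 363, 184 and 238 CPM in poly(I:C) replicates 1 to 3. The lowest poly(I:C) library was thus far above the highest saline library. Slfn5 rose 10.6-fold, with a log2 difference of 3.41 (SE 0.31, edgeR adjusted p = 0.00396). Among 14727 tested genes its rank by size of increase was 33. It was called in all 6 fits that left out 1 library, at log2 differences between 3.12 and 3.62. In those fits 1.1%, 0.437% and 0.348% of genes were called higher without saline replicates 1, 2 and 3, and 0.702%, 0.717% and 0.338% without poly(I:C) replicates 1, 2 and 3.

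Slfn8 encodes a long member of the same structural class. Its saline libraries stood at 90.6, 83.1 and 88.6 CPM and its poly(I:C) libraries at 346, 287 and 324 CPM. The spread was the smallest of the family, 4.42% of the mean in saline and 9.38% in poly(I:C), and saline replicate 1 did not stand out. Slfn8 rose 3.65-fold, with a log2 difference of 1.87 (SE 0.10, edgeR adjusted p = 6.98e-04), which was the fifth-smallest p of all tested genes. It too was called in all 6 fits that left out 1 library, at between 1.83 and 1.93.

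Slfn9 encodes a long member whose coding sequence was 92.7% identical to that of Slfn8 over 2730 aligned bases. It stood at 17.9, 9.87 and 9.96 CPM in saline and at 60.3, 33.8 and 44.4 CPM in poly(I:C). The groups did not overlap, and in both groups replicate 1 was highest. The log2 difference was 1.88 (SE 0.31, 95% interval 1.14 to 2.61), nearly that of Slfn8, but with a wider spread it missed the threshold (edgeR adjusted p = 0.0543). Of the 6 fits that left out 1 library it passed in 1, without saline replicate 1, at 2.20 (adjusted p = 0.00780), and it missed in the others, at 1.66 to 2.05 (adjusted p between 0.0598 and 0.251). Of the distinct 50-base stretches in the Slfn9 coding sequence, 10.4% also occur in Slfn8, so part of the reads may be split between them or lost. With both rows summed the saline libraries averaged 100.0 ± 7.86 CPM and the poly(I:C) libraries 365 ± 42.9 CPM (SD, n = 3 each), a 3.65-fold ratio.

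Slfn2 and Slfn4 are shown whole, and Slfn1 and Slfn3 as windows of 60 bases, because the 4 share a run of letters that the long members lack. They are also from RefSeq on GRCm38.p6, on the plus strand, at chr11:83064862-83065111 for Slfn2, chr11:83174936-83175185 for Slfn4, chr11:83116721-83116780 for Slfn1 and chr11:83191263-83191322 for Slfn3. Capitals mark the run ACTTCCTGG, the longest that all 4 share, which was chosen after the sequences were seen. Its presence in all 4 thus follows from the choice. It holds ACTTCCT, the reverse complement of AGGAAGT, a core bound by ETS factors.
Slfn2: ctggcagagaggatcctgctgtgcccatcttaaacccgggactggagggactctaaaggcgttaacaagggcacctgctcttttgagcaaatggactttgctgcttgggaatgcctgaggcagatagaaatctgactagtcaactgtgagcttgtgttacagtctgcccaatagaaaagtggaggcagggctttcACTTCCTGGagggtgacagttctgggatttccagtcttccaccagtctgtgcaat
Slfn4: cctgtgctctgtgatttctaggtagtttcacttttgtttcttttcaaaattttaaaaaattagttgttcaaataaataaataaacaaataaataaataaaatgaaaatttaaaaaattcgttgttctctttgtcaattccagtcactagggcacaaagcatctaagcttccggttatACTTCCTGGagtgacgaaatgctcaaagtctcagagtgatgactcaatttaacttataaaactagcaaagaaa
Slfn1: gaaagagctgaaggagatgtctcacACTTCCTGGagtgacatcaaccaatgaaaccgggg
Slfn3: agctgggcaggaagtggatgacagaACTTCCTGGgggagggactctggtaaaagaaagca
The run began 55 bases before the start in Slfn2, 73 in Slfn4, 74 in Slfn1 and 42 in Slfn3. It was found in 0.7% of all promoter windows on either strand. Of genes with a window, 0.857% of the 11432 tested and 1.94% of the 103 called higher held it. In Slfn1 and Slfn4 the shared stretch extended to 15 bases, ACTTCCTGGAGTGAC. In Slfn2 the run overlapped a match, on the opposite strand, to GGAA, any 2 bases and GAAA, the letters of a composite site of ETS and interferon regulatory factors, which 2.3% of windows held. None of the 4 genes' 250 bases held the response element core, and none of the long members' windows held ACTTCCTGG. Only exact matches were searched, so near matches were not counted.

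**Figure D2:**
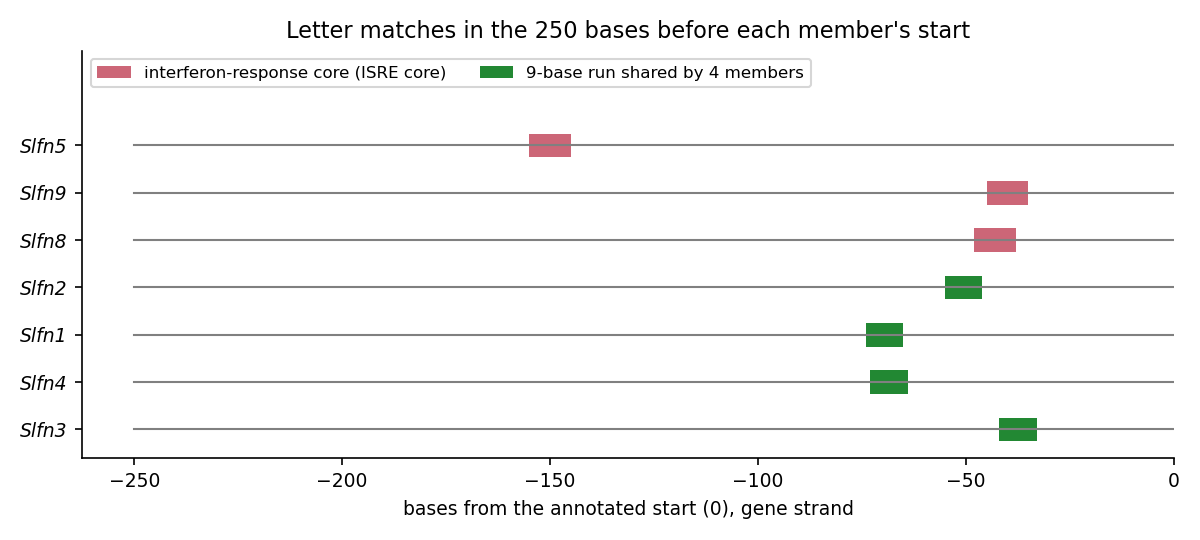
Position of letter matches in the 250 bases before the annotated start of each member, in bases from the start on the gene's strand. Exact matches to the response element core lie in Slfn5, Slfn9 and Slfn8. The 9-base run, chosen because Slfn2, Slfn1, Slfn4 and Slfn3 share it, lies in those members, with no member holding both.

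Slfn2 encodes a short member needed for quiescence of T cells and monocytes, which protects transfer RNA from cleavage. It stood at 115, 34.7 and 38.6 CPM in saline and at 195, 153 and 163 CPM in poly(I:C). The groups did not overlap, but saline replicate 1 was 3.14 times the mean of the other saline libraries. The log2 difference was 1.44 (SE 0.46, 95% interval 0.36 to 2.52), which did not pass (edgeR adjusted p = 0.177). Without saline replicate 1 it passed at 2.21 (SE 0.12, adjusted p = 7.89e-04). Without replicate 1 of both groups, an alternative chosen after seeing the data, it was 2.13 (SE 0.09, adjusted p = 5.46e-05).

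Slfn1 encodes the short founding member of the family, known from T cells. It stood at 35.2, 5.34 and 4.72 CPM in saline and at 40.7, 14.5 and 28.9 CPM in poly(I:C). Saline replicate 1 lay above poly(I:C) replicates 2 and 3, so the groups overlapped. The log2 difference was 0.90 (SE 0.81, 95% interval −1.03 to 2.82, edgeR adjusted p = 0.525), an interval that holds both no difference and a difference larger than that of Slfn8.

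Slfn4 encodes an intermediate member known from macrophages and other myeloid cells. It stood at 213, 30.1 and 25.3 CPM in saline and at 228, 62.6 and 130 CPM in poly(I:C). Saline replicate 1 was 7.70 times the mean of the other saline libraries, and only poly(I:C) replicate 1 exceeded it. The log2 difference was 0.65 (SE 0.88, 95% interval −1.43 to 2.73, edgeR adjusted p = 0.674). This was the widest standard error among the 7 members.

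Slfn3 encodes an intermediate member linked to differentiation of intestinal epithelium. It had few reads, 91, 35 and 31 counts (2.77, 1.01 and 0.91 CPM) in saline replicates 1 to 3. The poly(I:C) replicates 1 to 3 had 136, 50 and 78 counts (3.86, 1.48 and 2.24 CPM). The groups overlapped, and the log2 difference was 0.69 (SE 0.57, 95% interval −0.66 to 2.05, edgeR adjusted p = 0.485). Its coding sequence was 91.0% identical to that of Slfn4 over 1783 aligned bases, and 13.5% of its 50-base stretches also occur there. Slfn4 had far more reads in every library, and whether part of the Slfn3 count came from Slfn4 transcripts was not tested.

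The short and intermediate members were highest in the saline library that was also highest in neutrophil and monocyte markers. In saline, replicate 1 exceeded the mean of replicates 2 and 3 by 7.70 times for Slfn4, 7.0 times for Slfn1, 3.14 times for Slfn2 and 2.88 times for Slfn3. The same ratio was 1.81 for Slfn9, 1.53 for Slfn5 and 1.06 for Slfn8. Whether those cells supplied the transcripts was not tested. Over all libraries the order by neutrophil sum was not the order by Slfn4. Within poly(I:C) both orders were the same, with replicate 1 highest, at 3139 CPM of neutrophil markers and 228 CPM of Slfn4. Poly(I:C) replicates 2 and 3 had 62.6 and 130 CPM of Slfn4 at neutrophil sums of 1782 and 1810 CPM. Csf3r alone, also expressed by microglia, made up 1315 and 1251 CPM of those sums. In saline replicates 2 and 3 it was at 1291 and 1331 CPM. Both poly(I:C) sums lay below those of saline replicates 2 and 3, which had 30.1 and 25.3 CPM of Slfn4 and differed in treatment. All 11 neutrophil markers had lower values with poly(I:C), at a median log2 difference of −2.62. In edgeR 0 were called and 9 had an unadjusted p under 0.05, and 1 was called in DESeq2 and 7 in limma-voom. Over all genes 21.3% had an unadjusted p under 0.05 in edgeR. In either direction DESeq2 called 6.79% and limma-voom 19.5%. Saline replicate 1 set much of the size of the median. Without that library it was −0.999, with 0 called in edgeR and 2 at an unadjusted p under 0.05. In that fit 2625 of 15152 tested genes had an unadjusted p under 0.05. Without both replicates 1 the median was −1.93, with 10 of the 11 called lower in edgeR, where 214 of 14763 tested genes were called lower.

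**Figure D3:**
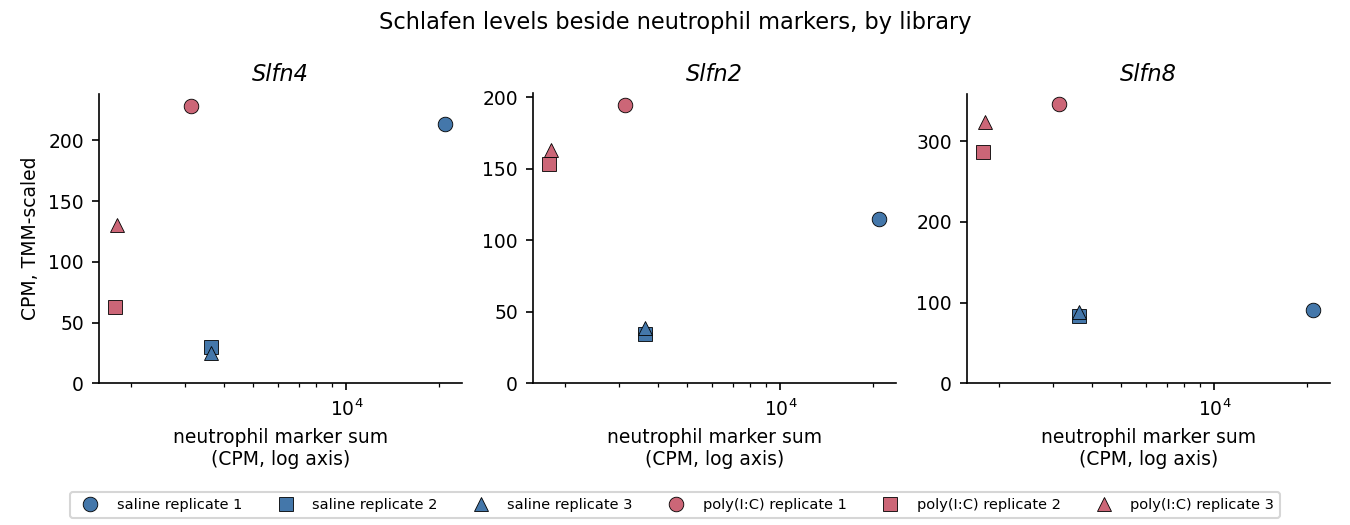
Level of Slfn4, Slfn2 and Slfn8 (CPM) against the summed CPM of 11 neutrophil markers (log axis), 1 point per library. Csf3r, 1 of the 11 and also expressed by microglia, contributed 945 to 1359 CPM to each sum. Saline replicate 1, at 20909 CPM of neutrophil markers, is high in Slfn4 and Slfn2 but level with the other saline libraries in Slfn8.

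Leaving out replicate 1 of both groups brought 6 of the 7 members past the threshold, all higher, where 2.4% of all tested genes were called higher. Slfn1 then had a log2 difference of 2.13 (SE 0.32, edgeR adjusted p = 0.0158) and Slfn4 of 1.82 (SE 0.31, adjusted p = 0.0248), with the lone remaining pair of libraries in each group. Slfn3 remained uncalled at 0.97 (SE 0.43, adjusted p = 0.270). Without saline replicate 1 alone, 4 members were called, Slfn2 and Slfn9 beside Slfn5 and Slfn8. With the neutrophil marker sum as a covariate, also chosen after seeing the data, 6 members were called, where 1.64% of genes were called higher. The neutrophil sums, which include Csf3r, did not overlap between the groups, so that covariate and treatment cannot be well separated. In limma-voom with quality weights the 6 members were the same ones, where 8.61% of genes were called higher.

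**Figure D4:**
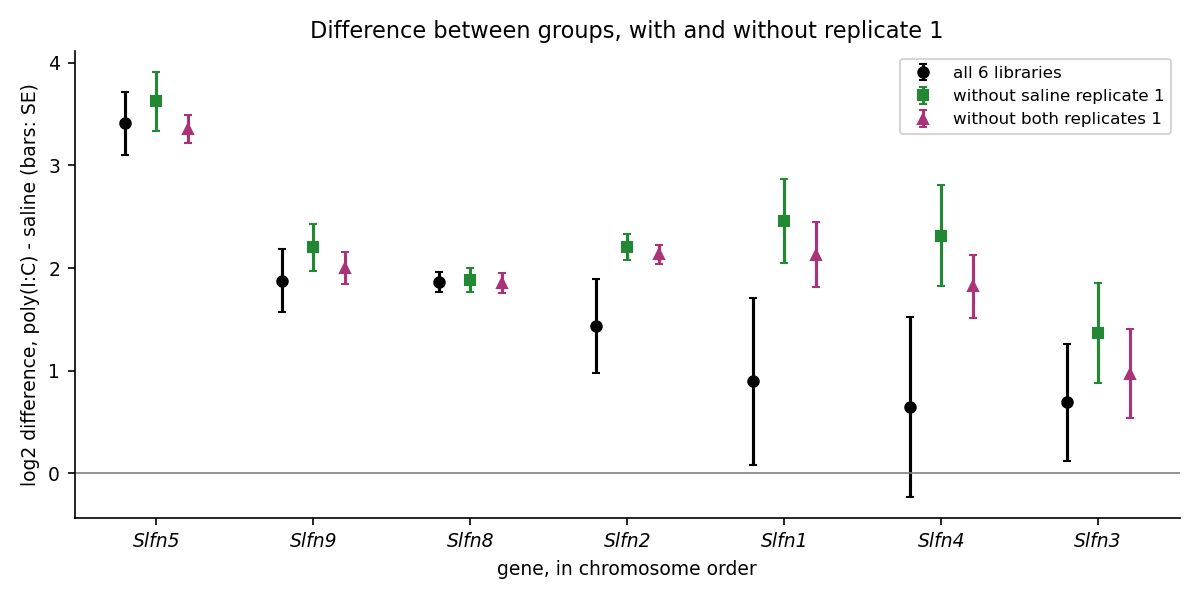
Log2 difference between poly(I:C) and saline for each member, in chromosome order, with all 6 libraries, without saline replicate 1 and without both replicates 1. Bars are standard errors. Without saline replicate 1 Slfn9 went from 1.88 to 2.20, whereas Slfn1 went from 0.90 to 2.46 and Slfn4 from 0.65 to 2.31 without saline replicate 1.

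The 7 genes lie in 1 cluster on chromosome 11, in the order Slfn5, Slfn9, Slfn8, Slfn2, Slfn1, Slfn4, Slfn3 in RefSeq on GRCm38.p6. No other protein-coding gene lies between them there, though pseudogenes, noncoding RNA genes and Slfn10-ps do. With all libraries the fold differences in that order were 10.6, 3.67, 3.65, 2.71, 1.86, 1.57 and 1.62. The size of the difference thus fell along the cluster, from the Slfn5 end, up to the last pair. Neighbours other than Slfn5 and Slfn9 differed by less than their standard errors added together. The order did not hold without both replicates 1, where the log2 differences were 3.36, 2.00, 1.85, 2.13, 2.13, 1.82 and 0.97.

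Ratios between members within a library do not depend on depth or scaling, and in these libraries the place of Slfn5 in the family differed between the groups. The log2 ratio of Slfn5 to Slfn8 was between −2.11 and −1.50 in saline and between −0.64 and 0.07 in poly(I:C). That of Slfn5 to Slfn9 was between 0.84 and 1.11 in saline and between 2.42 and 2.59 in poly(I:C). The ratio of Slfn5 to each of the other 6 members separated the groups without overlap. The mean log2 ratio of Slfn8 to Slfn9 differed by only −0.03 between the groups (2.85 ± 0.45 and 2.82 ± 0.29, SD, n = 3 each, exact permutation p = 0.9). The log2 ratio of Slfn1 to Slfn4 varied little over the libraries, between −2.60 and −2.42 in saline and between −2.49 and −2.11 in poly(I:C), although both genes varied several-fold. Of 21 pairs of members, 8 had ratios that did not overlap between groups. The 6 pairs with Slfn5 were among them and, sharing that gene, are not separate results. The share over all pairs of genes was not computed, so the count of 8 has no background beside it. For 3 libraries against 3, the two-sided exact permutation test cannot go below p = 0.1, or 0.263 after adjustment over the 21 pairs, so none could pass.

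The 7 members together took 507, 185 and 189 CPM in saline and 1237, 737 and 931 CPM in poly(I:C). In saline replicates 2 and 3 Slfn8 supplied 44.8% and 47.0% of these counts and Slfn4 16.2% and 13.4%, while in saline replicate 1 Slfn8 supplied 17.9% and Slfn4 42.1%. In poly(I:C) the share of Slfn5 was 29.4%, 25% and 25.6%, against 6.32%, 11.5% and 10.9% in saline. Longer transcripts collect more reads, so levels are compared between genes per kilobase of coding sequence, which ranged from 1011 bases in Slfn1 to 2730 in Slfn8 and Slfn9. On that scale poly(I:C) libraries had 150 ± 19.1 CPM per kilobase of Slfn2, 117 ± 11 of Slfn8, 98.8 ± 34.6 of Slfn5 and 77.7 ± 46.1 of Slfn4 (SD, n = 3 each). They had 27.7 ± 13 of Slfn1, 16.9 ± 4.89 of Slfn9 and 1.32 ± 0.63 of Slfn3. Of neighbours in that order, only Slfn2 and Slfn8, and Slfn9 and Slfn3, differed by more than their SDs added together. In saline the order was Slfn2 at 55.4 ± 40.0, Slfn4 at 49.6 ± 59.3, Slfn8 at 32.0 ± 1.42, Slfn1 at 14.9 ± 17.2, Slfn5 at 9.30 ± 2.42, Slfn9 at 4.61 ± 1.69 and Slfn3 at 0.81 ± 0.54, where neighbours among the first 5 differed by less than their SDs added together. Saline replicate 1 set the places of Slfn4 and Slfn1 in it. In saline replicates 2 and 3 Slfn4 had 16.7 and 14.0 CPM per kilobase, below Slfn8 at 30.4 and 32.4, and Slfn1 had 5.28 and 4.67, below Slfn5 at 8.05 and 7.75.

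**Figure D5:**
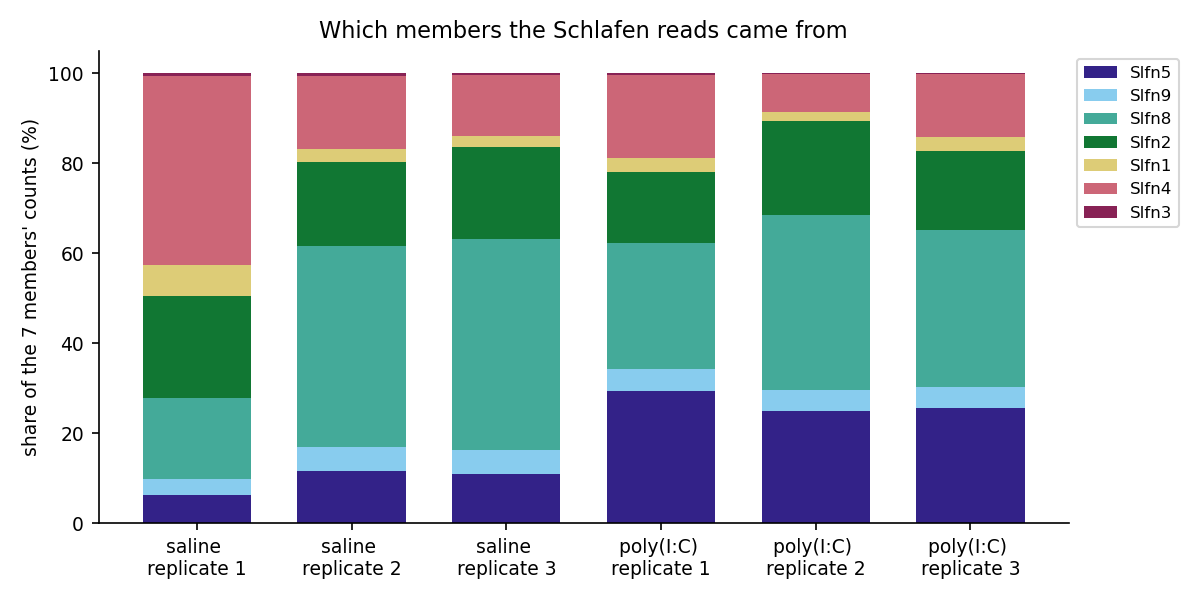
Share of the 7 members' counts that came from each member, in percent, 1 bar per library. Slfn5 takes 25% to 29.4% in poly(I:C) and 6.32% to 11.5% in saline, and Slfn4 takes 42.1% in saline replicate 1.

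Other genes with Schlafen names were near the limit of detection. Slfn14, a long member, had 1, 3 and 0 counts in saline replicates 1 to 3 and 8, 0 and 0 with poly(I:C), and Slfnl1, a Schlafen-like gene, had between 0 and 4 counts in each library. Neither passed the filter on low counts. Slfn5os, which is antisense to Slfn5 and was named after its values were seen, was at 0 counts in each of the 6 libraries. The library kit does not mark strand, so reads over both genes cannot be told apart. How much of Slfn5os overlaps Slfn5 was not examined, so the count of 0 sets no clear upper limit on its level.

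The genes whose levels over the 6 libraries were most like those of the 2 called members were other interferon-induced genes. Among 10672 genes averaging 5 CPM or more, Slfn5 was closest to Phf11d (Pearson r = 0.999 on log2 CPM) and to Ifit1 (r = 0.999), which encodes a protein that binds foreign RNA. Ifit1 went from 2.27 ± 0.74 to 31.1 ± 12.3 CPM and Phf11d from 12 ± 1.61 to 79.7 ± 19.9 CPM (SD, n = 3 each). Slfn8 was closest to Trim34b (r = 0.999), of the TRIM family, at 26.7 ± 0.13 and 93.4 ± 7.86 CPM, and to Rnf213 (r = 0.999), a large ubiquitin ligase, at 203 ± 17.8 and 931 ± 105 CPM. All 6 points of each such relation share the treatment, so r describes these libraries only.

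Genes of interferon signalling and of other interferon effectors were called more often than the background of 0.883%. Of 10 genes of the type I interferon receptor and ISGF3 signalling, 5 rose and 0 fell in edgeR, at a median log2 difference of 0.79, beside 0.01 over all tested genes. Irf7, which amplifies interferon production, rose 15.7-fold. Stat2 and Irf9, which encode parts of ISGF3, rose 3.32-fold and 2.22-fold, with edgeR adjusted p of 0.00108 and 0.00145. Of 17 interferon effectors that act on RNA or translation, 12 rose and 0 fell, at a median of 2.19. Adar, an RNA-editing deaminase, rose 2.49-fold, and Eif2ak2, a kinase that halts translation on double-stranded RNA, rose 4.92-fold. Ifit3 rose 15.1-fold and Oasl1, an oligoadenylate synthetase-like gene, 11-fold. Slfn5 thus lay within the range of these genes.

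Genes of transfer RNA cleavage and protection and of quiescence, the processes with which Schlafen proteins are linked, were not called in edgeR. Of 9 tested genes of transfer RNA cleavage and protection, 0 were called in edgeR, 1 had an unadjusted p under 0.05, 0 were called in DESeq2 and 2 in limma-voom, and the median log2 difference was −0.08. Over all genes 21.3% had an unadjusted p under 0.05 in edgeR, 6.79% were called in DESeq2 and 19.5% in limma-voom, in either direction. The 4 with the smallest p were Ssb, an RNA-binding chaperone of new transfer RNA, at a log2 difference of 0.24, Trmt2a at −0.28, the transfer RNA methyltransferase Trdmt1 at 0.36 and the ribonuclease inhibitor Rnh1 at −0.16, with edgeR adjusted p between 0.230 and 0.347. Of 11 quiescence genes, 0 were called in edgeR, 3 had an unadjusted p under 0.05, 2 were called in DESeq2 and 5 in limma-voom, to be read against the same shares, and the median was −0.18. The transcription factor genes Foxo3, Klf2 and Klf4 had log2 differences of −0.40, −0.53 and −0.41, and the cell cycle inhibitor gene Cdkn1b of −0.36, with edgeR adjusted p between 0.136 and 0.277.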

How the data were processed

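Total RNA of 6 libraries, 3 per group, was made into cDNA (SMARTer) and libraries (Nextera XT), per the labels' protocols. The deposited table holds the authors' raw read counts, 1 column per library and 1 line per gene symbol. The submitters' processing notes name fastp, HISAT2, HTSeq and the build GRCm39. No version, setting, strand option or annotation is given in the sources used here. Depending on the counting mode, reads shared by close Schlafen copies or by overlapping genes can be split or lost.

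From the counts, edgeR 4.0.16 in R 4.3.3 was run on the whole table: filterByExpr by group kept 14727 of 23491 genes, libraries were scaled by TMM, and glmQLFit with glmQLFTest compared the groups with no covariate. Calls are at a Benjamini-Hochberg adjusted p under 0.05, SE is the absolute log2 difference divided by the square root of F, and CPM values use the TMM factors. Fold means 2 raised to the log2 difference. Coding lengths and identities (mafft 7.526) come from GENCODE M21, the transcript with the longest coding part per gene. Promoters come from the RefSeq table, in which all 7 members matched and the first listed start was used (Slfn8 has 2).

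Alternatives were RLE and total-count scaling, no filter, a filter of 5 CPM in 3 libraries, DESeq2 1.42.0, limma-voom with quality weights (limma 3.58.1), a replicate block, summed paralog rows, and each library left out. The members, gene lists and tests were chosen with earlier results of these data known. Named genes were the members, other Schlafen-named genes, Fmr1, the 4 smallest p of each pathway list and the 2 genes most like each called member. One gene that this rule names is not reported here. Slfn10-ps, Slfn1l, Oas1b and Ang2 are not analysed here. No 2 replicates agreed within counting noise (chi-square per gene at least 21.2). On simulated data for this comparison, over 14510 genes, the edgeR step recovered 48% of genes changed 2-fold and 74% of genes changed 4-fold, and called 4 unchanged genes.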

Additional observations from a re-analysis of the deposited data

How the results depend on the processing

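Every member kept its direction in each alternative that gave it a value, and Slfn5 and Slfn8 were called in each of theirs (summing paralogs gave values for Slfn3, Slfn4, Slfn8 and Slfn9 only), with log2 differences of 3.12 to 3.62 and of 1.83 to 1.93 over the fits that left out 1 library. Slfn9, just short of the threshold, passed with RLE scaling (log2 difference 1.85), total-count scaling (1.96), no filter (1.86), the stricter filter (1.92), DESeq2 (1.84), the replicate block (1.89), and its row summed with Slfn8 (1.87). In limma-voom with quality weights Slfn1 (2.09), Slfn2 (1.93), Slfn4 (1.80) and Slfn9 (2.04) passed, making 6 members. Without both replicates 1, Slfn1 (2.13), Slfn2 (2.13), Slfn4 (1.82) and Slfn9 (2.00) passed, also making 6. With the neutrophil covariate they stood at 3.25, 2.66, 3.16 and 2.52, again with 6 called. Leaving out 1 library gave 2 to 4 members called, with Slfn2 between 1.15 and 2.21 and Slfn9, called in 1 of these 6 fits, between 1.66 and 2.20. Slfn3 was called in no alternative and was not tested under the stricter filter.

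Over all genes, 130 higher and 11 lower in edgeR became 557 and 448 in DESeq2, 1268 and 1608 in limma-voom, 355 and 214 without both replicates 1, 242 and 78 with the neutrophil covariate, 171 and 89 with the replicate block, and 147 and 18 with no filter. The share of higher calls thus fell from 92.2% to 44.1% in limma-voom, and the cause was not tested. Leaving out 1 library gave 51 to 167 higher and 0 to 20 lower genes. The counts of 0 lower came without saline replicate 3 and without poly(I:C) replicate 3, where 1913 and 1831 genes had an unadjusted p under 0.05.

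The labels give same-numbered libraries only a number in common. Their deviations from the group means correlated at 0.112, −0.123 and 0.189, and not every library correlated best with its own number. Deviations cancel within a group, so these values cannot show whether same-numbered libraries were processed together. The cause of the change in calls with the replicate block was not tested.

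Read shares depend on length. Per kilobase of coding sequence, saline shares were 7.22% for Slfn1, 33.4% for Slfn2 and 3.23% for Slfn9, and poly(I:C) shares 5.46% for Slfn1, 31.4% for Slfn2, 19.9% for Slfn5, 24.6% for Slfn8 and 3.44% for Slfn9. Per kilobase of all annotated exons, saline shares were 6.75% for Slfn1, 38.7% for Slfn2, 0.48% for Slfn3, 4.79% for Slfn5 and 2.49% for Slfn9, and poly(I:C) shares 5.16% for Slfn1, 37.1% for Slfn2, 14.5% for Slfn5 and 2.73% for Slfn9. The likeness of Trim34b to Slfn8 was 0.943 as Spearman rho. Slfn3 had the fewest counts, 31 to 136 per library.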
